A study of Mus musculus with 25 samples.

Results

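Whether a higher dose gave a different RNA profile than a lower one was examined for the chemicals of the series with a 10-fold step in nanomolar dose other than the sex steroids. These were T3 (triiodothyronine), DEX (dexamethasone), TCDD (a dioxin) and 4OHPCB (a hydroxylated polychlorinated biphenyl). The comparison set the 4 arrays at 10 nM against the 4 arrays at 1 nM, paired by chemical, and so used 8 of the 25 arrays of the series. In the series, mouse embryonic stem cells were left to aggregate into embryoid bodies (EBs), in which the first embryonic lineages form, and these were kept for 48 h in medium with 1 of 12 chemicals, each at a low and a high dose, or with DMSO alone. All EBs came from C57BL/6 cells of 1 line (B6G-2), which derives from a mouse that expresses GFP throughout. The line was grown on mouse fibroblasts, which were removed before EBs were formed, and every chemical was dissolved in DMSO, so both doses carry the solvent. RNA was read on Illumina Mouse WG-6 arrays, whose beads carry 1 or more probes per transcript.

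There was 1 array per chemical and dose. Triplicate experiments are mentioned in the methods, but the sources used here leave unsaid whether an array holds RNA of several cultures. No chemical therefore had a replicate at a dose, and only a difference shared by the 4 chemicals could be tested. Differences of 1 chemical are given as descriptions.

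The chemicals act through different proteins. T3 binds the thyroid hormone receptors, and DEX binds the glucocorticoid receptor, both of which are nuclear receptors that sit on DNA and control transcription. TCDD binds the aryl hydrocarbon receptor (AhR), which pairs with Arnt and switches on cytochrome P450 genes such as Cyp1a1. Hydroxylated polychlorinated biphenyls are known as disruptors of thyroid hormone transport, and related compounds act on xenobiotic receptors that induce drug-metabolizing enzymes.

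On the 8 arrays, 15254 to 16284 of 45281 probes were detected at a p under 0.01, and 15706 probes detected on at least 4 arrays were tested. The number detected at 10 nM minus that at 1 nM was -628 for T3, -796 for DEX, 375 for TCDD and -205 for 4OHPCB. The part of these detection differences in the results below was not tested. All 6 markers of pluripotent cells and all 4 of the primed epiblast were detected on all 8 arrays. Of 10 markers of primitive and visceral endoderm 7 were detected on all 8 arrays, while Gata4 and Afp were detected on none. Of 7 fibroblast markers, Thy1 and Dcn were detected on all 8 arrays and Col1a1, Lum and Postn on none. Of the neural plate markers, Nes was detected on 7 arrays and Sox1 and Pax6 on none. The summed signal of the fibroblast markers was 593 to 891 at 10 nM and 669 to 833 at 1 nM. The 4OHPCB arrays stood apart from the other 6. The SD over probes of the log2 difference between a 4OHPCB array and one of another chemical was 0.432 to 0.55, against 0.268 to 0.321 between arrays of different chemicals without 4OHPCB. Pairing by chemical takes such a level difference out of the test, and counts without the 4OHPCB pair are given beside the main ones.

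No gene passed the test. With limma and the Benjamini-Hochberg adjustment over all 15706 probes, 0 probes were higher and 0 lower at 10 nM at an adjusted p under 0.05, and the lowest adjusted p was 0.36. At an unadjusted p under 0.05, 451 probes were higher (2.87% of those tested) and 544 were lower (3.46%), together 995 (6.34%). With each array scaled to its median in place of quantile normalization, that split was 660 higher and 380 lower, again with 0 calls after adjustment. The two-tailed t-test that the methods name was run unpaired, so differences between chemicals entered its error. It gave 0 calls after adjustment and 443 probes at an unadjusted p under 0.05. Without the 4OHPCB pair 0 probes passed, and the lowest adjusted p was 0.0905. In all 4 chemicals 1166 probes were higher at 10 nM (7.42%) and 1066 were lower (6.79%). The 10 nM arrays lay above all 1 nM arrays for 139 probes (0.885%) and below all of them for 114 (0.726%).

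The size of a shared dose effect was bounded by these data. The 95% interval of the mean difference lay within a 2-fold change for 15655 probes (99.7%) and within 0.5 on the log2 scale for 78.4%. Each interval was taken for a single probe, with no adjustment. Its width used the variance that limma shares across probes, with a median of 27.2 degrees of freedom, of which 3 were residual. The median half-width of that interval was 0.11 for probes with a mean log2 signal of 13 and over and 0.45 for those under 6.5. These bounds hold for signal with an offset of 16 added, which draws in the log2 differences of dim probes. For Proser3, a dim gene named below, the mean difference was 0.80, against 1.10 with no further background correction. A sign-flip test over 4 pairs cannot give a two-sided p under 0.125 (exact), so single values were not tested that way.

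The genes described next are the 12 in each direction with the smallest p among probes that had 1 sign in all 4 chemicals and a mean difference of at least 0.3 on the log2 scale. They were picked by this contrast, so their common sign is given by the choice. Their adjusted p (limma) lay between 0.36 and 0.65, and none passed.

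**Figure D1:**
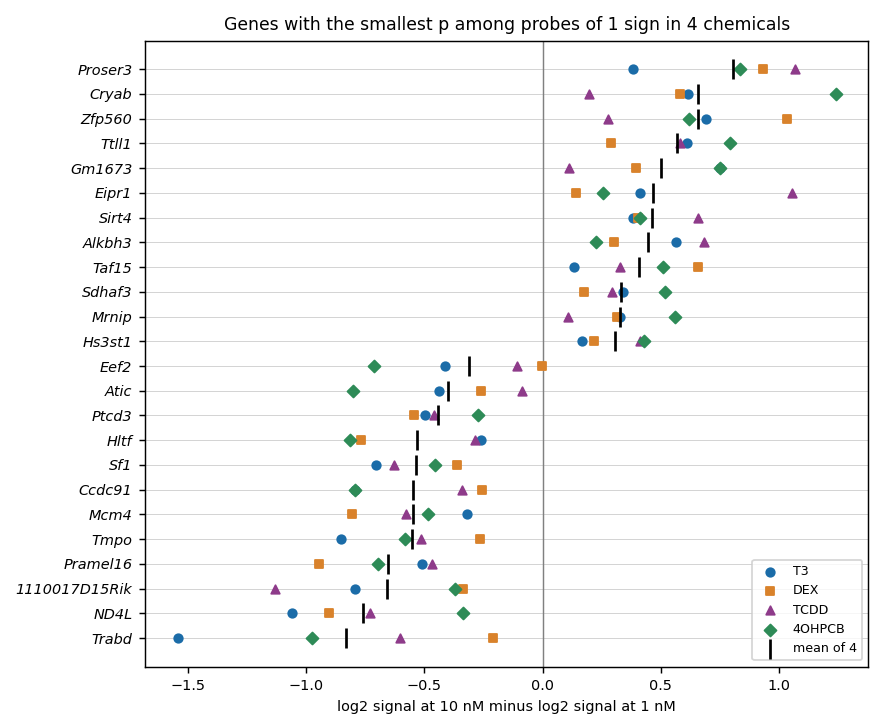
Log2 signal at 10 nM minus log2 signal at 1 nM (horizontal axis) for the 12 genes of smallest p in each direction, with 1 symbol per chemical and a bar at the mean of 4. No point lies on the other side of 0 because genes were chosen that way, and the chemicals can lie far apart within a gene (Trabd, -0.21 for DEX and -1.54 for T3).

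Of the 12 genes named for a higher signal at 10 nM, Ttll1, which encodes an enzyme that adds glutamate chains to tubulin, had the smallest p. Its log2 signal was 8.33, 8.14, 8.37 and 8.10 at 10 nM of T3, DEX, TCDD and 4OHPCB, against 7.73, 7.85, 7.80 and 7.31 at 1 nM. All 10 nM arrays lay above all 1 nM arrays. On average the probe differed by 0.57 (SE 0.13, adjusted p = 0.36 in limma). A second probe of Ttll1 had a mean difference of 0.29. For T3, both probes were higher by over 0.5.

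Cryab encodes a small heat shock protein, alpha B crystallin. Its log2 signal was 8.01, 8.06, 7.25 and 7.04 at 10 nM of T3, DEX, TCDD and 4OHPCB, against 7.40, 7.47, 7.05 and 5.80 at 1 nM. The difference was largest for 4OHPCB, at 1.24, and smallest for TCDD, at 0.20, and the 2 doses overlapped across chemicals. Cryab was detected on 7 of the 8 arrays.

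Hs3st1, a sulfotransferase that acts on heparan sulfate, was the brightest gene of this group, with a mean log2 signal of 11.32. Its signal was 11.82, 11.81, 11.99 and 10.29 at 10 nM of T3, DEX, TCDD and 4OHPCB, against 11.66, 11.59, 11.57 and 9.86 at 1 nM. Both 4OHPCB arrays were low, which made the doses overlap, although the difference within a chemical was 0.17 to 0.43.

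The other genes of the group included parts of the mitochondrion and of RNA and DNA handling. Sirt4, a mitochondrial sirtuin, had a mean difference of 0.46. Sdhaf3, which helps assemble succinate dehydrogenase, had one of 0.33, while another probe gave 0.06. Taf15, an RNA-binding protein of the FET family, had one of 0.41, Alkbh3, which removes alkyl groups from nucleic acids, one of 0.44, and Mrnip, a partner of the MRN repair complex, one of 0.33. Gm1673 (0.50), Zfp560 (0.66), Eipr1 (0.47) and Proser3 (0.80) completed the group. Of these, Alkbh3, Eipr1 and Proser3 had other probes with mean differences below 0, between -0.03 and -0.17. Proser3 was detected on only 5 of the 8 arrays, at a mean log2 signal of 6.07.

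Of the 12 genes named for a lower signal at 10 nM, Mcm4, a subunit of the helicase that unwinds DNA at replication, had the smallest p. Its log2 signal was 8.02, 7.53, 7.68 and 8.14 at 10 nM of T3, DEX, TCDD and 4OHPCB, against 8.34, 8.33, 8.25 and 8.63 at 1 nM. The 10 nM arrays all lay below the 1 nM arrays, and the mean lay at -0.55 (SE 0.12, adjusted p = 0.36 in limma). Other probes of Mcm4 gave -0.18 and -0.09. At the same doses the named probe differed by 1.38 for E2 and 0.55 for DHT, and with both pairs added to the fit the mean was -0.04 (adjusted p = 0.973 in limma). E2 differences were wide in general, with an SD over all probes of 0.476, against 0.268 to 0.304 for the 4 chemicals. The E2 array at 10 nM also had the fewest detected probes of the series, 14451.

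Eef2 encodes the elongation factor that moves the ribosome along mRNA. The log2 signal of its named probe was 11.76, 11.84, 11.92 and 11.59 at 10 nM of T3, DEX, TCDD and 4OHPCB, against 12.17, 11.85, 12.03 and 12.30 at 1 nM. The difference was -0.71 for 4OHPCB and -0.41 for T3 but only -0.11 for TCDD and -0.003 for DEX, so the 2 doses overlapped. Without the 4OHPCB pair the mean was -0.18 in place of -0.31. The other probes of Eef2 had mean differences of -0.19 and -0.22.

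Atic, which catalyses the last steps of purine synthesis, had a mean difference of -0.40, and its other probes gave -0.27 and -0.26. Ptcd3, a protein of the mitochondrial ribosome, had one of -0.44, with differences of -0.28 to -0.54 in the single chemicals. Hltf, a helicase-like factor, had one of -0.53 at its named probe, while another probe gave -0.03. The mean difference was -0.55 for Ccdc91, -0.65 for Pramel16, -0.66 for 1110017D15Rik and -0.83 for Trabd, whose other probes gave -0.10 and 0.10. Sf1, which recognizes the branch point of introns, had a mean difference of -0.54 at its named probe and -0.01 to 0.08 at 3 others. Tmpo, a protein of the nuclear lamina, had -0.55 at its named probe, and other probes gave -0.07 and 0.09. The lowest p of all 15706 probes (4.8e-05 in limma) was at a probe of Pabpc1, the poly(A)-binding protein. That probe had a mean difference of -0.28 (SE 0.058, adjusted p = 0.36 in limma), too small in size for this group. Its difference lay between -0.19 and -0.32 in the 4 chemicals, while other probes of Pabpc1 gave 0.10 and -0.13.

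The respiratory chain is built from subunits encoded in the nucleus and a few encoded in mitochondrial DNA. Of 63 nuclear genes of the chain that were measured, 54 had a mean difference above 0 and 9 below 0, while all 7 measured transcripts of the mitochondrial genome had one below 0. Over all 9192 genes tested, 4691 were above 0 and 4501 below. None passed after adjustment, and the mitochondrial group was put together after its values had been seen. The lower mitochondrial values came mostly from TCDD and the higher nuclear ones mostly from 4OHPCB.

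**Figure D2:**
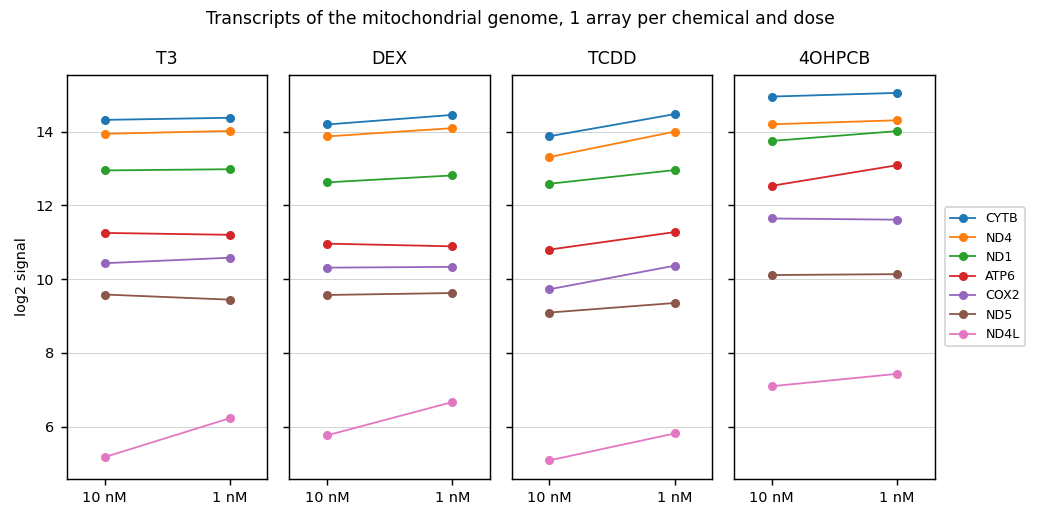
Log2 signal (vertical axis) of 7 transcripts of the mitochondrial genome on the 10 nM array (left in each panel) and the 1 nM array (right) of each chemical, with 1 line per transcript. All 7 lines are lower at 10 nM for TCDD, where the median difference was -0.60, and most are close to level for T3.

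At an unadjusted p under 0.05, 6 of the 7 mitochondrial transcripts were lower and 0 higher, beside 3.24% lower and 3.08% higher (6.32% in all) over all genes, and 0 passed after adjustment. CYTB, cytochrome b of complex III, had a log2 signal of 14.32, 14.20, 13.88 and 14.96 at 10 nM of T3, DEX, TCDD and 4OHPCB, against 14.38, 14.46, 14.48 and 15.06 at 1 nM. It was lower at 10 nM in each chemical, by most for TCDD, and the doses overlapped because both 4OHPCB arrays were high. The mean over chemicals was -0.25 (SE 0.065, adjusted p = 0.544 in limma).

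ND4, a subunit of complex I, had a log2 signal of 13.95, 13.87, 13.31 and 14.20 at 10 nM of T3, DEX, TCDD and 4OHPCB, against 14.02, 14.10, 14.00 and 14.31 at 1 nM. The TCDD array at 10 nM was the lowest of the 8, and the mean over chemicals was -0.28 (SE 0.070, adjusted p = 0.544 in limma). The mean difference was -0.21 for ND1, -0.23 for ATP6, -0.19 for COX2 and -0.05 for ND5. ND4L, at -0.76, was detected on only 4 of the 8 arrays. In all 4 chemicals 4 of the 7 were lower, beside 6.63% of all genes. The median over the 7 transcripts was -0.06 for T3, -0.19 for DEX, -0.60 for TCDD and -0.11 for 4OHPCB, and without the TCDD pair the median of the mean differences was -0.14 in place of -0.23, with 4 transcripts lower at an unadjusted p under 0.05. In the fit with no replicate block, and with the methods' t-test, 0 were lower at that p. For E2 and DHT, the sex steroids given at the same doses, the median was -0.54 for E2 and 0.18 for DHT. E2 differences were wider over all probes, as given for Mcm4.

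The nuclear genes of the chain had a median difference of 0.05. At an unadjusted p under 0.05, 8 were higher and 0 lower, beside 3.08% higher and 3.24% lower over all genes. Members at that p were Ndufs6, Ndufb8, Ndufa13, Ndufa9, Ndufc1 and Ndufv2 of complex I and Atp5j and Atp5k of the ATP synthase, with mean differences of 0.12 to 0.15 apart from Atp5k. Ndufs6 was higher by 0.20, 0.04, 0.16 and 0.19 at 10 nM of T3, DEX, TCDD and 4OHPCB (mean 0.15, SE 0.052, adjusted p = 0.663 in limma), while a dimmer probe of it had a mean of -0.001. Atp5k, with a mean difference of 0.61, lay close to background at a mean log2 signal of 6.04. Of the 63 genes, 55 were higher at 10 nM for 4OHPCB, 46 for DEX, 38 for T3 and 30 for TCDD. The median was 0.13 for 4OHPCB and -0.01 for TCDD, and without the 4OHPCB pair 41 of 63 were above 0, with a median of 0.03. Median scaling of the arrays gave a median of 0.10, where that of all genes was 0.02. The number higher at an unadjusted p under 0.05 was 0 with no replicate block, 1 with limma without trend and 2 with the methods' t-test. For E2 35 of the 63 were higher at 10 nM, and for DHT 25 were higher and 38 lower.

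Lists of receptor targets, which also hold receptors and their partners, were measured in part. Measured were 3 of 13 genes for AhR and 14 of 19 for the glucocorticoid receptor. For the thyroid hormone receptors it was 6 of 20, and for the xenobiotic receptors 8 of 20. Of 13 AhR genes fixed for TCDD, 10 did not pass the filter on detection. Cyp1a1, Cyp1a2, Aldh3a1 and Ahr itself were detected on 0 of the 8 arrays, and Tiparp and Ahrr on 1. The 3 measured genes were Arnt, the partner of AhR, Nqo1, a quinone reductase, and Nfe2l2, the factor that controls antioxidant genes. For TCDD at 10 nM against 1 nM, the log2 signal was 9.91 against 9.80 for Arnt, 8.74 against 8.87 for Nqo1 and 9.17 against 9.35 for Nfe2l2. These differences of 0.10, -0.12 and -0.17 were no larger than the SD of TCDD differences over probes of like signal, which was 0.262 for a mean log2 signal of 7.5 to 9 (Nqo1) and 0.177 for 9 to 11 (Arnt and Nfe2l2).

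Of 19 genes listed for the glucocorticoid receptor 14 were measured, and the receptor gene Nr3c1, itself on the list, was detected on 0 arrays. Fkbp5, which encodes a chaperone of the receptor, had a log2 signal of 9.81 at 10 nM of DEX and 9.88 at 1 nM. Tsc22d3 had 8.67 at 10 nM and 8.83 at 1 nM, and Sgk1 had 12.90 at 10 nM and 13.04 at 1 nM. None of these 3 targets had a higher signal at the higher dose.

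The metallothionein gene Mt2, which binds metals and is a target of glucocorticoids, was higher at 10 nM of DEX by 0.40 and at 10 nM of T3 by 1.01. Its log2 signal was 8.96, 8.35, 8.19 and 9.05 at 10 nM of T3, DEX, TCDD and 4OHPCB, against 7.95, 7.95, 8.22 and 8.83 at 1 nM. The TCDD arrays were level, and the doses overlapped. Mt1 was higher in all 4 chemicals, by 0.06 to 0.39, and its 10 nM arrays lay above all 1 nM arrays, as for 0.946% of all genes. In the list as a whole 2 of 14 genes were higher and 0 lower at an unadjusted p under 0.05, beside 3.08% higher and 3.24% lower over all genes, and the median difference for DEX was -0.08.

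For T3, 6 of 20 genes fixed as thyroid hormone targets or receptors were measured, and Thra, Thrb and Dio1 were detected on 0 arrays. Klf9, a usual target of T3, had a log2 signal of 12.53 at 10 nM and 12.62 at 1 nM of T3. Of the 6, 3 were higher and 3 lower at 10 nM of T3, with a median of -0.01. Over all 9192 genes, 4936 were higher and 4237 lower for T3. The difference was -0.26 for Me1, -0.09 for Bcl3, 0.14 for Rxra and 0.21 for Rxrb. Of 20 genes listed for the xenobiotic receptors, receptor genes included, 8 were measured, with Hmox1, Gclm, Txnrd1 and Srxn1 among them. Cyp2b10, Cyp3a11 and the receptor genes Nr1i2 and Nr1i3 were detected on 0 arrays. Ephx1, an epoxide hydrolase, was higher at 10 nM in all 4 chemicals, by 0.49, 0.11, 0.25 and 0.26 for T3, DEX, TCDD and 4OHPCB (mean 0.28, SE 0.095). Txnrd1, a thioredoxin reductase, had a log2 signal of 6.76 at 10 nM of TCDD against 7.87 at 1 nM, and lay between -0.31 and 0.06 in the others.

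The sequence bound by each receptor was searched on both strands in the 250 bases before the start of 27025 mouse genes (RefSeq, GRCm38.p6). The letters were GCGTG for the AhR core, AGAACA for a glucocorticoid half-site and AGGTCA for a thyroid hormone half-site, and overlapping matches were counted separately. One AhR core was present in 19.5% of promoters and 2 or more in 8.71%, with 14.3% and 1.84% for the glucocorticoid half-site and 12.5% and 1.32% for the thyroid hormone half-site. The search covered 3 of 3 measured AhR genes, 13 of 14 glucocorticoid targets and 5 of 6 genes of the thyroid hormone list. Among these, Arnt was the only AhR gene and Sgk1 the only glucocorticoid target with a match. Their windows are shown with that of Mt2, which had no glucocorticoid half-site and the largest DEX difference of the list. In each window only the motif of the gene's own list is marked, and letters of the other motifs stay in lower case. Capitals mark the AhR core in Arnt (chr3:95434140-95434389, plus strand) and the glucocorticoid half-site, read on the other strand, in Sgk1 (chr10:21881934-21882183, plus strand), and Mt2 lies at chr8:94172368-94172617 (plus strand).
Arnt: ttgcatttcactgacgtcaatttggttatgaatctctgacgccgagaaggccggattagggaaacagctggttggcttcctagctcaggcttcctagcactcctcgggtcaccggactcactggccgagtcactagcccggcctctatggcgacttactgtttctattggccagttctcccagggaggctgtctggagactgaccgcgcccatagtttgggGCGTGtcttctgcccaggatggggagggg
Sgk1: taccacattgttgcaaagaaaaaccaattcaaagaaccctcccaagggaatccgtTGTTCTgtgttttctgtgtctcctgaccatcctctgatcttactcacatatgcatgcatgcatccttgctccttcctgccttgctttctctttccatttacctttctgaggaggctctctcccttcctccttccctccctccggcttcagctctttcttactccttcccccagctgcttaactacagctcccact
Mt2: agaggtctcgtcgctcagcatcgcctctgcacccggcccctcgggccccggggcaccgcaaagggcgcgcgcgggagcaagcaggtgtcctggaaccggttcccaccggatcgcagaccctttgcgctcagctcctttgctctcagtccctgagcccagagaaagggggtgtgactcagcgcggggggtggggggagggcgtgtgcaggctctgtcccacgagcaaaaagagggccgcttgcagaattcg

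The dose difference was also set against the number of matches. For TCDD the median difference was 0.01 for 3972 genes with 0 AhR cores, 0.003 for 2206 genes with 1 and 0.01 for 1308 genes with 2 or more. For DEX it was -0.003 for 6704 genes with 0 glucocorticoid half-sites, -0.002 for 736 genes with 1 and -0.059 for 46 genes with 2 or more. For T3 it was 0.02 for 6735 genes with 0 thyroid hormone half-sites, 0.02 for 705 genes with 1 and 0.02 for 46 genes with 2 or more. The SD over genes was 0.245 to 0.334 in these groups of DEX and T3. A match is a string of letters and not a site known to be bound.

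Genes of the primed epiblast, the state that follows naive pluripotency as EBs form, had mostly lower signal at 10 nM of 4OHPCB and TCDD. Of 14 measured genes 12 had a mean difference below 0 (9 with median scaling), 3 were lower and 0 higher at an unadjusted p under 0.05, and 0 passed after adjustment. Over all 9192 genes 4501 were below 0, and 3.24% were lower and 3.08% higher at that p. In 4OHPCB 11 of 14 were lower, with a median of -0.30, and in TCDD 13 of 14 were lower, with a median of -0.10. For DEX 5 of 14 were lower, with a median of 0.03. Without the 4OHPCB pair 9 were below 0 and the median of the mean differences was -0.02 in place of -0.09. With no replicate block, and with the methods' t-test, 0 were lower at an unadjusted p under 0.05. Among probes with a mean log2 signal of at least 9, 6 of 8 were below 0, 1 at that p, with a median of -0.02. In such bulk samples, fewer cells of a type and less RNA per cell cannot be told apart.

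Fgf15, a secreted growth factor, had a log2 difference of -0.47, -0.11, -0.64 and -0.05 for T3, DEX, TCDD and 4OHPCB. Lefty2, an inhibitor of Nodal signalling, had -0.26, -0.29, -0.003 and -0.30, with a mean of -0.21 (SE 0.074, adjusted p = 0.662 in limma). Zic2, a zinc finger factor, had a mean of -0.25, and Fgf5, the classical mark of the primed state, had -0.54 for 4OHPCB and 0.05 to 0.07 for DEX and T3. Nodal, Lefty1 and Dnmt3b, members of the same list, had mean differences between -0.03 and 0.01.

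Naive and core pluripotency genes did not share a direction. Of 21 measured, 8 had a mean difference above 0 and 13 below, and the median was -0.14 for T3, -0.12 for DEX, 0.04 for TCDD and -0.06 for 4OHPCB. Dppa3 had a mean difference of 0.25 and Zfp42 one of -0.16. In the mesoderm and primitive streak list 7 of 9 were below 0, led by Eomes, a T-box factor, at -0.38 (-0.24 to -0.56 in the 4 chemicals). The median of that list was -0.43 for DEX and -0.08 to -0.18 for the others. Mixl1 and Mesp1, also markers of mesoderm, were detected on 0 arrays, while Eomes was detected on all 8. The lists of other cell types differed in sign between chemicals, with medians of 0.19 for DEX and -0.20 for 4OHPCB in fibroblast genes, and of 0.20 for T3 and -0.27 for TCDD in trophoblast genes.

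**Figure D3:**
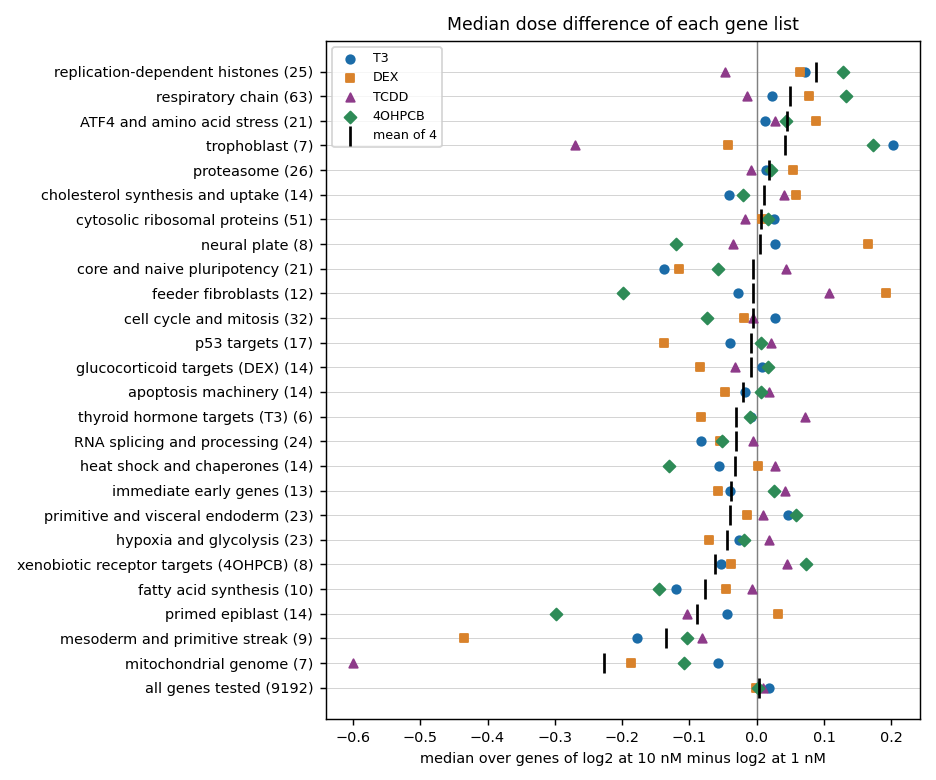
Median over the measured genes of a list of the log2 signal at 10 nM minus that at 1 nM (horizontal axis), with 1 symbol per chemical, a bar at the median of the mean over the 4 chemicals, and the number of genes in brackets. Lists with at least 5 measured genes are drawn, without the study's own sets. Most bars lie within 0.1 of 0, and the mitochondrial genome (TCDD, -0.60), the mesoderm list (DEX, -0.43) and the primed epiblast (4OHPCB, -0.30) have, among the lists drawn, the points farthest from it.

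Medians of most stress and growth lists lay close to that of all genes, which was 0.003. In the list of Atf4 targets, which respond to amino acid shortage, Atf5 was higher by 0.25 to 0.28 in all 4 chemicals (mean 0.26, SE 0.074), and the list had a median of 0.05. Ddit3, the factor CHOP, was higher by 0.79 for 4OHPCB at its brightest probe, with -0.07 to 0.07 for the others. A second probe of Ddit3 gave 0.45 for 4OHPCB, 0.31 for DEX and -0.15 for T3. Among chaperones Hspd1 of the mitochondrial matrix had a mean of -0.25 (-0.11 to -0.47 in the 4 chemicals). A second probe of Hspd1 gave -0.32 for T3 but 0.11 for DEX. The endoplasmic reticulum chaperone Hspa5 had a mean of -0.51, with -1.06 for TCDD. The median was -0.03 for heat shock and chaperone genes, -0.04 for hypoxia and glycolysis, -0.01 for p53 targets, 0.01 for 51 cytosolic ribosomal protein genes and 0.02 for 26 proteasome genes. For fatty acid synthesis it was -0.08, with 9 of 10 means below 0, beside 4501 of 9192 over all genes. Of 14 heat shock and chaperone genes, 3 were lower and 1 higher at an unadjusted p under 0.05. Over all genes 3.24% were lower and 3.08% higher, and 0 passed after adjustment.

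Replication-dependent histone genes, which are transcribed in S phase, had 19 of 25 means above 0 and a median of 0.09, with 0 at an unadjusted p under 0.05. The median was 0.07 for T3, 0.06 for DEX, -0.05 for TCDD and 0.13 for 4OHPCB. Bcl2l1, an inhibitor of apoptosis, had a mean of -0.39, with -0.58, -0.62, 0.05 and -0.41 for T3, DEX, TCDD and 4OHPCB. Of the 14 apoptosis genes 2 were lower and 0 higher at an unadjusted p under 0.05, beside 3.24% lower and 3.08% higher over all genes.

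In the gene sets that the study drew up for disease and toxicity, 6 Alzheimer, 4 Parkinson, 8 Autism and 20 Oxidative stress genes were measured. Their medians were -0.05 for Alzheimer, -0.05 for Parkinson, -0.06 for Autism and 0.06 for Oxidative stress. Apoe, a lipid carrier, was higher in all 4 chemicals (mean 0.18, SE 0.065), and Ide, which degrades insulin and amyloid peptides, was lower in all 4 (mean -0.17, SE 0.068), with 0 genes passing after adjustment.

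Over all 15706 probes the SD of the log2 difference was 0.268 for T3, 0.285 for DEX, 0.304 for TCDD and 0.295 for 4OHPCB. Across probes, the differences of any pair of chemicals correlated at a Pearson r of -0.03 to 0.123, the highest for T3 with 4OHPCB. These are descriptions, since probes are not independent replicates, and the 4 differences share no array. At 2 probes of 1 gene, within a chemical, r was itself only 0.0787 for T3, 0.105 for DEX and 0.0872 for TCDD over 3208 genes (0.329 for 4OHPCB), so a low r between chemicals does not show that their genes differed.

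The SD depended on the signal. Between a mean log2 signal of 9 and 11 it was 0.221 for 4OHPCB, against 0.169 to 0.18 for T3, DEX and TCDD, while under 6.5 it was 0.404 for T3, 0.468 for DEX, 0.506 for TCDD and 0.425 for 4OHPCB. Differences over 2-fold came from dim probes with at most 1 exception per chemical, and TCDD had the most. Over 2-fold higher at 10 nM were 28 probes for T3 (0.178%), 50 for DEX (0.318%), 83 for TCDD (0.528%) and 20 for 4OHPCB (0.127%). Over 2-fold lower were 37 for T3 (0.236%), 49 for DEX (0.312%), 88 for TCDD (0.56%) and 43 for 4OHPCB (0.274%).

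**Figure D4:**
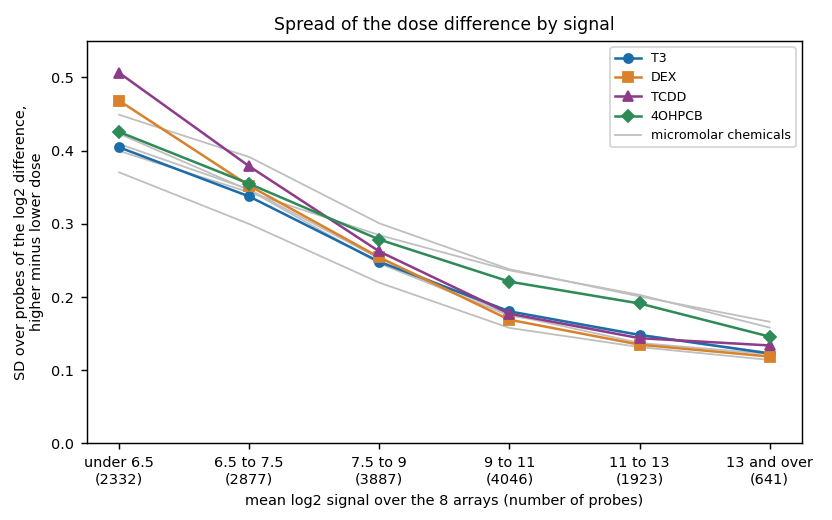
SD over probes of the log2 difference between the higher and the lower dose (vertical axis) by the mean log2 signal of the probe (horizontal axis, number of probes in brackets), with 1 line per nanomolar chemical and grey lines for the 5 micromolar chemicals. All lines fall with signal, and between 9 and 11 the 4OHPCB line (0.221) lies above those of T3, DEX and TCDD (0.169 to 0.18).

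Among bright probes, and at a smaller difference, 4OHPCB had the most. Of 6610 probes with a mean log2 signal of at least 9, those beyond 0.5 on the log2 scale numbered 42 higher and 85 lower for 4OHPCB, 15 higher and 38 lower for TCDD, 21 higher and 11 lower for DEX, and 14 higher and 21 lower for T3. Separate probes of a gene give a check within an array pair. For 1029 genes with 2 probes of that brightness, the differences at both probes correlated at an r of 0.579 for 4OHPCB, 0.194 for T3, 0.2 for DEX and 0.182 for TCDD. Probes of a gene share the array and its RNA, so their likeness does not replicate the dose.

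**Figure D5:**
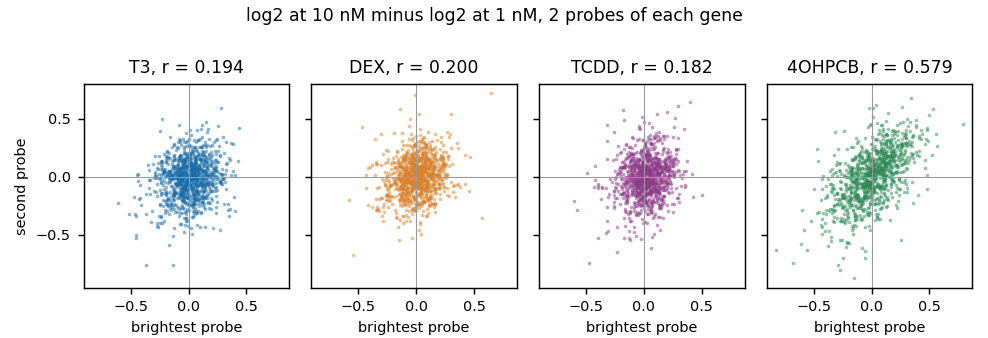
Log2 signal at 10 nM minus that at 1 nM at the brightest probe of a gene (horizontal axis) and at its second brightest (vertical axis), for 1029 genes whose probes both have a mean log2 signal of at least 9. The cloud is drawn out along the diagonal for 4OHPCB (r = 0.579) and nearly round for T3, DEX and TCDD (r = 0.182 to 0.2).

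For 4OHPCB, 6 genes were higher and 13 lower by at least 0.5 at every one of their probes, of 3208 genes with 2 or more. Actn4, which crosslinks actin, was lower at 3 probes, by -0.64 to -1.62, and its brightest had a log2 signal of 10.40 at 10 nM and 11.22 at 1 nM. Eef2 was lower at 3 probes, by -0.68 to -0.75. Further genes of this kind were Dag1, dystroglycan of the cell surface, at -0.56 and -0.63, Pwp2, needed for ribosomal RNA processing, at -0.52 and -1.02, and Usp8, a deubiquitinase of endosomes, at -0.63 and -0.82. Cenpx, a protein of the centromere, was higher at 3 probes, by 0.53 to 0.71.

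The brightest genes set apart for 4OHPCB, at a mean log2 signal of at least 10 (a limit chosen after the values were seen), were Ddit3 (10.65 at 10 nM, 9.86 at 1 nM), Cdkn3, a phosphatase of cell cycle kinases (11.21 at 10 nM, 10.55 at 1 nM), Rpain and Atp5o. Another probe of Ddit3 gave 0.45, but those of Rpain and Atp5o gave -0.24 to 0.01. Those lower were Actn4, Eef2, Usp7 and Tcof1, the last a factor of ribosomal gene transcription (10.33 at 10 nM, 11.03 at 1 nM). For Tcof1 another probe gave 0.07.

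For TCDD, bright genes with a lower signal at 10 nM were ND4 and COX2 of the mitochondrial genome, Erdr1 (10.16 at 10 nM, 10.90 at 1 nM, with another probe at -0.48) and Zfp710, whose other probe gave 0.55. Tfap2c, a factor of the trophoblast and germ line, was higher by 0.65 at the probe of this group, with 0.86 and 0.40 at the others. Genes beyond 0.5 at every probe numbered 5 higher and 9 lower for TCDD. Ahnak, a large scaffold protein, was higher at 3 probes, by 0.50 to 0.56, and Pim2, a kinase of cell survival, was lower at both, by -0.55 and -0.78.

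For DEX, 7 genes were higher and 10 lower beyond 0.5 at every probe. Fbxo15, an F-box gene of pluripotent cells, had a log2 signal of 10.74 at 10 nM and 11.41 at 1 nM, and its probes gave -0.68 and -0.55. Brca2, which repairs DNA breaks, was lower at both probes, by -0.62 and -0.74, and Nfib, a transcription factor, by -0.62 and -1.02. Trio was higher at both, by 0.57 and 0.80. Tet1, which oxidizes methylated cytosine, was higher by 0.48, with 11.95 at 10 nM and 11.47 at 1 nM at its 1 probe.

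For T3, 5 genes were higher and 4 lower beyond 0.5 at every probe. Ascl2, a factor of the trophoblast, was higher by 0.53 and 0.57, and Fzd6, a Wnt receptor, was lower, by -0.59 and -0.75. Lrp2, the endocytic receptor megalin of visceral endoderm, had a log2 signal of 11.07 at 10 nM of T3 and 11.71 at 1 nM, and a mean difference of -0.29 over the 4 chemicals. Hcfc1, a cofactor of transcription, was lower by -0.58.

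By the rule of largest difference with no limit on signal, the 32 genes named had a median mean log2 signal of 7.03, and their differences of 1.01 to 1.67 in size were often not matched by other probes. For T3, Tbc1d10a had -1.67 at one probe and 0.30 at another. For DEX, Dpp9 had 1.20 and -0.28. For TCDD, Lmnb1, lamin B1, had 1.41 and 0.16, and Aspm, a spindle protein, had 1.38 at its 1 probe. For 4OHPCB, Btg3 had 1.16 and 0.03, while Actn4 (-1.62, -0.83 and -0.64) and Mybbp1a (-1.31, with -0.23 to -0.39 at 3 others) were below 0 at all their probes.

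Dose steps of the nanomolar chemicals were last set against those of the 5 chemicals given at micromolar doses (thalidomide, DEHP, permethrin, cyclopamine and methoprene acid). Those steps were of 100 times, against 10 times here. With limma over 18 arrays, 0 probes differed between the classes at an adjusted p under 0.05, 486 did at an unadjusted p under 0.05 (3.09%), and the lowest adjusted p was 0.9998. The micromolar chemicals alone had 0 calls and 1229 probes at an unadjusted p under 0.05 (7.83%). Tmpo had the smallest p, with -0.27 to -0.85 in the nanomolar chemicals and 0.01 to 0.56 in the micromolar ones.

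The dose difference of 4OHPCB was most like that of DEHP. Over the 6610 bright probes, the difference of 4OHPCB correlated with that of DEHP at an r of 0.476 and with that of methoprene acid at 0.335, against 0.16 with T3, 0.0776 with DEX and 0.0271 with TCDD. For E2 and DHT at 10 nM against 1 nM, r with 4OHPCB was 0.13 for E2 and -0.237 for DHT. Of the 12 genes named higher above, 11 were also higher for E2 and 4 for DHT. Of the 12 named lower, 7 were also lower for E2 and 6 for DHT. The E2 difference had the wide SD over all probes given above (0.476). By the median over the micromolar chemicals, all 12 named higher were also higher at the higher dose. By that median, 8 of the 12 named lower were also lower. No share over all genes is given beside these sign counts, so whether they exceed it was not tested.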

How the data were processed

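RNA of the 25 arrays was read from the table deposited by the authors, which gives a signal intensity and a detection p-value for each of 45281 probes. Of the signals of the 8 arrays, 32.5% to 35.0% lay below 0, so background had been subtracted before the table was deposited. Values that the authors had normalized in GeneSpring served as an alternative. The platform of the tables is a later version of the WG-6 array than the methods name. Which arrays shared a BeadChip is not given in the sources used here, and no depth exists for arrays, whose number limits the precision.

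Background was corrected with nec of limma 3.58.1 in R 4.3.3, with an offset of 16 and the deposited detection p-values, followed by quantile normalization of the 25 arrays and log2. A probe was kept when its detection p was under 0.01 on 4 or more of the 8 arrays (15706 probes, of which 13735 had 1 symbol, 5 several and 1966 none). Symbols came from the platform's annotation, and 34807 of 34885 probes with 1 symbol matched RefSeq by gene identifier. Of 771 list entries 680 matched a probe. The brightest kept probe stood for a gene in lists, 9192 genes in all.

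The log2 signal was fitted with chemical as a block and dose as a term, which leaves 3 residual degrees of freedom, and tested with eBayes (trend) and the Benjamini-Hochberg adjustment at 0.05. The pairing comes from the chemical named in the labels. P-values measure only the spread between these arrays. The dose step of both classes was compared in 1 fit of 18 arrays. Named genes were the 12 per direction with the smallest p, 1 sign in 4 chemicals and a mean difference of at least 0.3, the 4 per direction and chemical of largest difference, the genes of the 4 target lists, and the 2 leading genes of each other list. Other genes were named after their values were seen, among them those alike at every probe, those of bright signal, further members of the lists described, and Tmpo in the comparison with the micromolar chemicals. The members and lists were chosen with earlier results of these data known. The fit was tested on simulated data. Alternatives were other backgrounds, scalings and filters, the authors' table, fits without the block or trend, added arrays, the methods' t-test and leaving out each chemical. Columns of no sample numbered 0.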

Additional observations from a re-analysis of the deposited data

Results flagged for a closer look

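Of 55 results checked for a pair far from the other 3, 1 was set apart, and chance sets apart about 1 in 20. Sirt4 was higher at 10 nM by 0.66 for TCDD, against 0.38 to 0.41 for T3, DEX and 4OHPCB. The mean difference over the 4 chemicals was 0.46, with an adjusted p of 0.617 (limma), and the gene has 1 kept probe.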

How the results depend on the processing

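The count of probes past an adjusted p under 0.05 was 0 in the main fit and in all alternatives except 1. Leaving out 1 chemical at a time gave 0 to 1, the 1 being a probe with no symbol that was higher by 0.62 without the T3 pair (adjusted p = 0.00905, limma). The lowest adjusted p was 0.0905 without 4OHPCB and 0.634 or more without DEX or TCDD. The fit with no replicate block, which drops the pairing by chemical, gave 0 calls and 229 probes at an unadjusted p under 0.05, against 995 with it. That count was 2339 with no filter, 443 with the methods' t-test, and 503 over probes with a mean log2 signal of at least 9, a limit added after the data were seen. Median scaling moved the median of all genes to 0.02 and the split at that p to 660 higher and 380 lower, against 451 and 544. The 24 named genes kept their sign in all 397 values under alternatives, a sign that their choice largely fixes, and the lowest adjusted p of those tested was 0.129. The mean over a gene's probes was not tested, and it was -0.28 for Trabd, -0.11 for Sf1 and 0.03 for Eipr1. Adding the E2 and DHT pairs moved Mcm4 to -0.04 and ND4L to -0.30, and Eipr1 was 0.27 without the TCDD pair. Of the list medians, 329 values moved by less than the spread between chemicals and 12 by more. The dose step of nanomolar against micromolar chemicals gave 0 calls in all 16 alternatives. The median half-width of the 95% interval was widest for dim probes, at 0.45 under a log2 signal of 6.5.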
